A study of Homo sapiens with 12 samples.

Results

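The RNA modification N6-methyladenosine (m6A) was mapped in A375 cells, an established human melanoma cell line, and the peaks that the authors annotated to 3' untranslated regions (3'UTRs) are described here. Members were taken by annotation alone, as the rows marked UTR3 in the peak list of each group and in the table of differential peaks. They made up 20935 of the 46039 peaks of the shALKBH5 list, 20466 of the 44304 peaks of the shCtrl list and 3619 of the 6513 peaks of the table. The cells carried a lentiviral short hairpin RNA against the demethylase ALKBH5 (shALKBH5) or a control hairpin (shCtrl, named Scramble in the methods), and the labels give their genotypes as ALKBH5 knockdown and wild type. Both groups shared the lentiviral infection, and the methods do not state which ALKBH5 hairpin the sequenced cells carried. They describe experiments in general as independently repeated, and the labels do not tie the libraries to separate cultures. Each group had 3 input libraries and 3 immunoprecipitation (IP) libraries, in which fragmented poly(A) RNA was pulled down with an antibody against m6A. The peak lists hold 1 fold enrichment of IP over input per peak and group, and none per library, which leaves the peaks without a replicate check. Replicate error was available for expression, from the FPKM (fragments scaled by transcript length and library size) of the 6 input libraries.

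m6A is placed on mRNA by a nuclear writer complex built around METTL3 and METTL14, mostly within a short consensus around an adenosine, and is dense near stop codons and along the 3'UTR. It is removed by the erasers ALKBH5 and FTO and is recognised by readers such as the YTH domain proteins and the IGF2BP proteins, which act on mRNA decay, translation and stability. The 3'UTR is also where microRNA complexes, AU-rich element binding proteins and the deadenylation machinery act. A peak in this assay marks a stretch of transcript enriched by the antibody and does not place the modified base.

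Whole-series features that bear on the values were few. FPKM summed to 212760 to 223231 per input library, read counts were not used here, and the sequencing depth of the libraries is unknown. ALKBH5 stood at 3.39, 3.92 and 3.12 FPKM in the shALKBH5 libraries and at 19.3, 17.8 and 17.6 FPKM in the shCtrl libraries, with no overlap. Of 9 melanocytic markers, 8 of them in the expression table, MITF, SOX10 and S100B reached a mean of 1 FPKM over the 6 input libraries. Their list summed to 263 to 267 FPKM in shALKBH5 and 215 to 226 FPKM in shCtrl libraries. This was not a shared rise. SOX10 averaged 181 FPKM in shALKBH5 and 184 FPKM in shCtrl libraries, MITF 1.26 and 0.777 FPKM and PAX3 0.567 and 1.15 FPKM. The pigment genes TYR, TYRP1, PMEL and DCT were below the level of 1 FPKM. Of 13 genes of other cell types, 8 were in the expression table and CD68 alone reached it, and their sum was 39.2 to 43.2 FPKM in shALKBH5 and 16.7 to 18.8 FPKM in shCtrl libraries. The part of these markers in the results below was not tested. In bulk samples such as these, a change in the makeup of the culture and a change in RNA per cell cannot be told apart.

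The 3'UTR peaks covered most expressed genes. They lay in 11466 genes in the shALKBH5 list and 11338 genes in the shCtrl list, 12420 genes in all, of which 10384 had a 3'UTR peak in both lists. The shALKBH5 list alone gave 1082 of these genes and the shCtrl list alone 954. Of all 12420 genes, 12232 were in the expression table, and 9356 reached the mean of 0.5 FPKM needed for testing. A further 2876 genes with a 3'UTR peak fell below that level and 188 were not listed.

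The 3'UTR was the largest class of peaks. Its share was 45.5% in the shALKBH5 list (45.0 to 45.9%, a 95% Wilson interval) and 46.2% in the shCtrl list (45.7 to 46.7%). In the table of differential peaks the share was 55.6% (54.4 to 56.8%), in 3153 genes. Most genes had few such peaks. A single 3'UTR peak was found in 53.7% of the shALKBH5 genes and 55.0% of the shCtrl genes, 2 peaks in 26.9% and 26.4%, and 4 or more in 8.79% and 8.51%. The genes with most were PCDHA10 with 17, PEX26 with 16, KLC1 with 13, and CIITA and GCC2 with 12 each in the shALKBH5 list. In the shCtrl list they were PEX26 with 20, KLC1 with 18, CFLAR and PCDHA10 with 17 each and TRIOBP with 15. KLC1 is a kinesin light chain, PEX26 a peroxisome import factor and CFLAR an inhibitor of caspase-8 activation. These counts are not counts of separate sites, since the peaks of these genes were listed on 2 to 4 transcripts and 10.3% of the 3'UTR peaks of each list overlapped another 3'UTR peak of the same list.

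Enrichment was moderate in most 3'UTR peaks and very high in a few. The median fold enrichment of IP over input was 4.95 in the shALKBH5 list (95% interval of the median over peaks 4.90 to 5.07, quartiles 2.76 and 8.57) and 5.11 in the shCtrl list (4.99 to 5.11, quartiles 2.76 and 8.94). Folds ran from 1.09 to 845 and from 1.09 to 1810. Other regions had medians of 4.90 and 5.11 (5'UTR), 4.08 and 4.06 (other coding exons), 7.35 and 7.66 (exons of noncoding RNAs) and 5.72 and 6.38 (introns), in the order shALKBH5 and shCtrl. Peaks called with a fold of 2 or more and a false discovery rate (FDR) no higher than 0.01 in their own list, named stricter peaks here, made up 71.1% (70.5 to 71.7%) and 72.7% (72.1 to 73.3%) of the 3'UTR peaks. The corresponding shares were 66.9% and 68.7% in the 5'UTR, 64.7% and 67.6% in other coding exons, 62.3% and 63.1% in noncoding exons and 47.3% and 49.3% in introns. Peak numbers are large and peaks are not replicates, so these intervals cover the spread over peaks and not that between cultures.

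**Figure D1:**
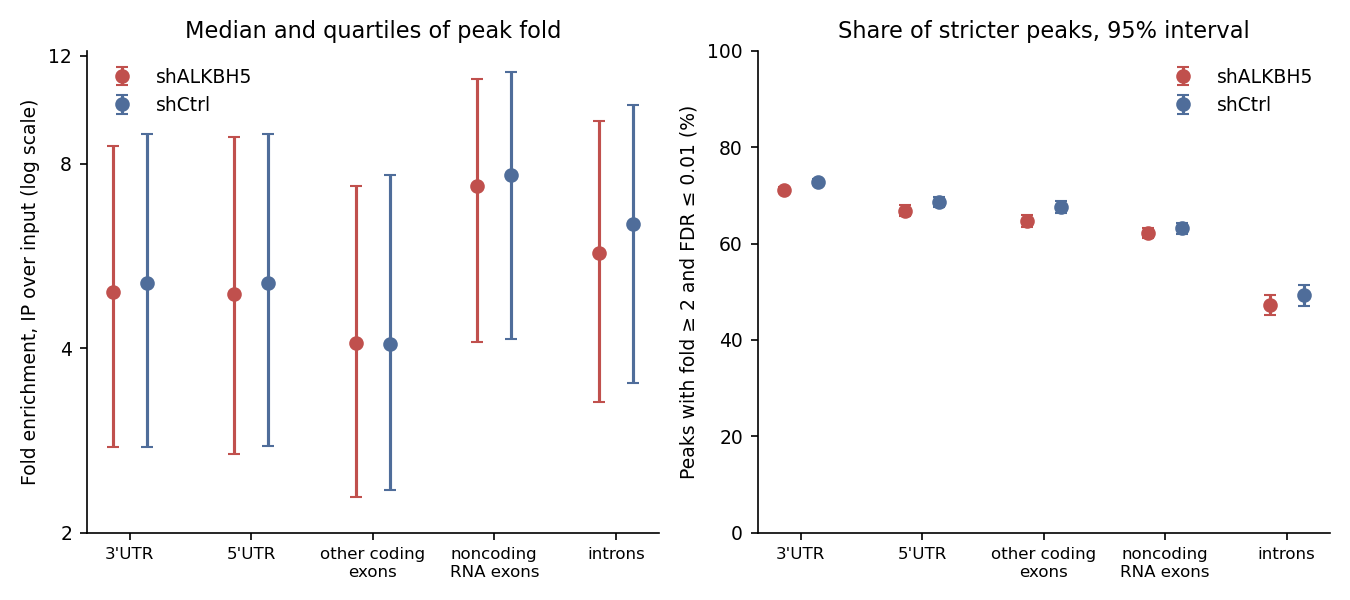
Fold enrichment of IP over input by annotated region (left, median as point and quartiles as bars, log axis) and the share of peaks with a fold of 2 or more and an FDR no higher than 0.01 (right, percent with 95% Wilson interval), for the shALKBH5 list in red and the shCtrl list in blue. The 3'UTR medians of 4.95 and 5.11 lie between those of other coding exons and noncoding exons, while the 3'UTR has the highest share of stricter peaks in each list, 71.1% and 72.7%.

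Fold values recurred at fixed steps that differed between the lists, which bears on every comparison of folds. The most common 3'UTR folds were 7.35 (3.82% of peaks), 8.57 and 9.80 in the shALKBH5 list and 7.66 (3.47%), 8.94 and 10.2 in the shCtrl list. Among folds under 10, 18.6% of the shALKBH5 values were whole multiples of 1.225 and 15.8% of the shCtrl values were whole multiples of 1.277, within 0.0051, against a median of 0.629% and 0.656% over the other steps tried. In genes under 1 FPKM the share rose to 40.0% and 33.5%, and in genes over 20 FPKM it was 3.92% and 4.57%. The list medians lay at 4.04 and 4.00 of their own steps. The log2 ratio of the steps, shALKBH5 over shCtrl, was -0.06.

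The strongest 3'UTR peaks were largely the same in both lists and mostly reached the annotated end of the gene. Among peaks at an FDR of 0.01 or less in genes averaging 5 FPKM or more, the 5 highest folds of the shALKBH5 list were those of FBXL19 (797), SNX8 (739), ERF (528), IGFBP2 (309) and HIRA (277). In the shCtrl list they were SNX8 (1810), FBXL19 (949), ERF (386), ZNF205 (382) and SYMPK (329). The FBXL19 peak spanned chromosome 16, 30946917 to 30948783 on the plus strand, with the same edges in both lists. The SNX8 peak lay on chromosome 7, 2251770 to 2253447 on the minus strand in the shALKBH5 list and 2251830 to 2253417 in the shCtrl list. FBXL19 is a CpG-binding F-box protein, SNX8 an endosomal sorting nexin, ERF an ETS-family repressor, HIRA a histone H3.3 chaperone and SYMPK a scaffold of the polyadenylation complex. All 10 of these peaks ended exactly at the listed 3' end of the gene except the shCtrl SNX8 peak, which ended 60 bp from it. Changes of expression, shALKBH5 over shCtrl, are on the scale of log2(FPKM + 0.1) and were called by limma at an adjusted p-value under 0.05. IGFBP2, an insulin-like growth factor binding protein, fell by 1.31 (standard error 0.0458, adjusted p = 1.01e-06). SNX8 fell by 0.27, while ERF and ZNF205 rose by 0.15 and 0.23. FBXL19, HIRA and SYMPK did not pass the test, with log2 fold changes of 0.07, 0.05 and -0.06.

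Positions of the 3'UTR peaks were alike in the lists. The distance from the peak centre to the annotated 3' end of the gene had a median of 2142.5 bp (2083 to 2202 bp) in the shALKBH5 list and 2140.25 bp (2082 to 2202.5 bp) in the shCtrl list. Peak coordinates include introns, and 12.8% and 12.9% of the 3'UTR peaks spanned over 5000 bp, with a median span of 511 and 537 bp. Among peaks of at most 5000 bp the median distance was 1664 bp (1617 to 1709 bp) and 1658 bp (1603 to 1711 bp). The gene's end is that of its longest annotated extent, so a peak in a shorter transcript counts as distant. An edge of the peak fell exactly on the gene's 3' end in 22.3% (21.8 to 22.9%) and 22.7% (22.2 to 23.3%) of the 3'UTR peaks, and the centre lay past it in 167 and 172 peaks.

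**Figure D2:**
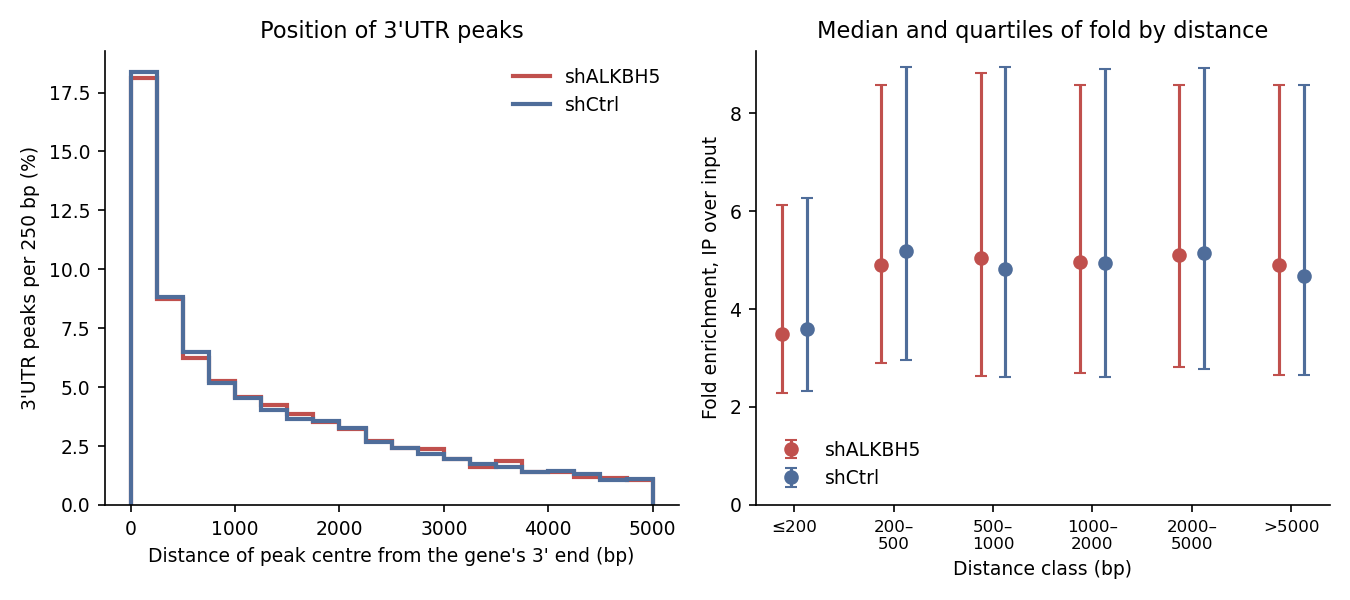
Distance of the centre of 3'UTR peaks of at most 5000 bp from the gene's 3' end in bins of 250 bp (left, percent of those peaks) and their fold enrichment by distance class (right, median as point and quartiles as bars), shALKBH5 in red and shCtrl in blue. The curves of the lists overlie each other and are highest in the first bin, and the class within 200 bp of the end has the lowest median folds, 3.48 and 3.60.

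Peaks beside the gene's end were weaker than those farther in. Of the 3'UTR peaks of at most 5000 bp that were centred inside the gene, 15.7% of the shALKBH5 and 16.1% of the shCtrl peaks were centred within 200 bp of the end, with median folds of 3.48 and 3.60. In the 5 classes farther from the end the median fold ran from 4.90 to 5.10 in the shALKBH5 list and from 4.68 to 5.19 in the shCtrl list. The share of stricter peaks was 61.4% and 64.6% within 200 bp of the end and 67.6 to 74.3% in the other classes of either list. The 3'UTR peaks of the differential table that spanned at most 5000 bp had a median distance of 1424.5 bp (1335 to 1527 bp).

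The share of genes with a 3'UTR peak rose with expression up to 20 FPKM and was lower in the more abundant classes, while the fold fell throughout. Of genes under 0.5 FPKM, 17.2% (16.6 to 17.8%) had a 3'UTR peak in either list. The share was 53.3% at 0.5 to 1 FPKM, 75.9% at 2 to 5 FPKM, 83.8% (81.9 to 85.5%) at 10 to 20 FPKM, 77.8% at 20 to 50 FPKM and 68.9% (65.5 to 72.1%) over 50 FPKM. The median fold of the 3'UTR peaks in the shCtrl list went from 7.66 in the lowest class to 4.63 at 2 to 5 FPKM and 2.63 over 50 FPKM. Input signal is the denominator of the fold and also the measure of expression, so these quantities are not independent.

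**Figure D3:**
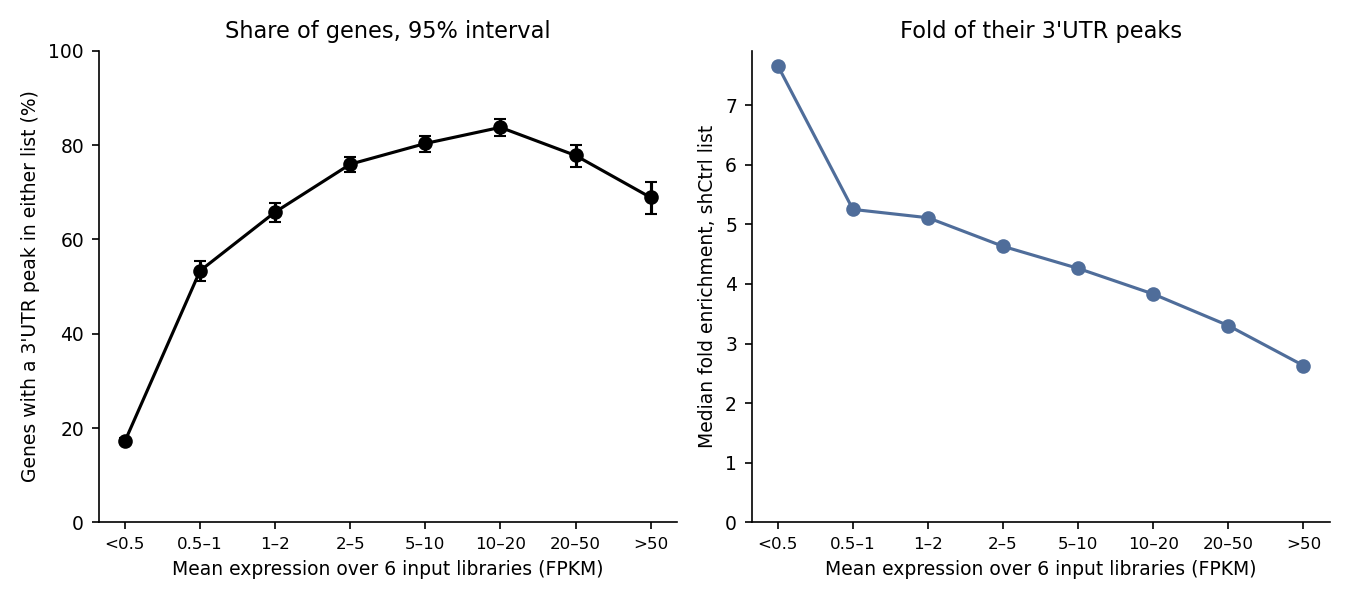
Share of genes with a 3'UTR peak in either list (left, percent with 95% Wilson interval) and median fold enrichment of their 3'UTR peaks in the shCtrl list (right) by mean FPKM over the 6 input libraries. The share climbs from 17.2% under 0.5 FPKM to 83.8% at 10 to 20 FPKM and is 68.9% over 50 FPKM, and the fold goes from 7.66 to 2.63.

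The share of genes with a 3'UTR peak was also counted by annotated function, with no test of the differences. Of 5715 genes averaging 5 FPKM or more, 79.2% (78.2 to 80.3%) had a 3'UTR peak, with a median of 4.90 and 5.08 for the strongest fold per gene in the shALKBH5 and shCtrl lists. Among 170 such genes that the authors' annotation gives DNA-binding transcription factor activity, 158 had one (92.9%, 88.1 to 95.9%), and the medians were 6.48 and 7.08. Ubiquitin-protein transferases had one in 101 of 112 (90.2%, 83.3 to 94.4%) and serine/threonine kinases in 103 of 121 (85.1%, 77.7 to 90.4%). Structural constituents of the ribosome had one in 118 of 148 (79.7%, 72.5 to 85.4%), with medians of 3.48 and 3.46, and mitochondrial inner membrane genes in 233 of 298 (78.2%, 73.2 to 82.5%), with 3.84 and 4.15. Levels differed between the groups, with a median of 10.3 FPKM for the transcription factors and 93.9 FPKM for the ribosomal genes, and the part of this difference was not tested. These 5 annotation groups were chosen after values of these data were seen.

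Most 3'UTR peaks were found in both lists. A 3'UTR peak of the other list overlapped 79.4% (78.9 to 80.0%) of the shALKBH5 and 82.0% (81.4 to 82.5%) of the shCtrl 3'UTR peaks, sharing 1 bp or more and the strand. When any peak of the other list was allowed, the shares were 81.1% and 83.8%, beside 79.7% and 80.1% for 5'UTR peaks, 81.8% and 82.6% for other coding exons, 71.8% and 79.2% for noncoding exons and 60.4% and 66.2% for introns. With a reciprocal overlap of at least 50%, the 3'UTR shares dropped to 57.4% and 58.8%, so peaks that met often had different extents. Sharing rose with expression, from 72.8% and 73.3% in genes under 1 FPKM to 90.8% (89.5 to 91.9%) and 91.1% (89.8 to 92.2%) in genes over 20 FPKM.

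The peaks found in 1 list were short and weakly supported. The shALKBH5 list held 3955 3'UTR peaks (18.9%) with no overlap in the shCtrl list, and the shCtrl list held 3325 (16.2%) with none in the shALKBH5 list. Of these, 32.8% and 31.4% were stricter peaks, against 80.0% and 80.7% of the 3'UTR peaks that met a peak of the other list. Their median span was 181 bp in each list, against 660 and 647 bp, and their genes had a median of 1.62 and 1.21 FPKM, against 3.09 and 3.08 FPKM. The strongest of them among genes of at least 5 FPKM were those of MTX1 (fold 50.2), CLPB (41.6), PIGT (30.6) and CPT1A (28.2) in the shALKBH5 list and of IPO9 (29.4), RERE (24.3), METTL2B (23.0) and ARNT (21.7) in the shCtrl list. CPT1A, the carnitine acyltransferase that admits long-chain fatty acids to mitochondria, had the largest expression change of these 8 genes and fell by 0.85 (standard error 0.0513, adjusted p = 9.6e-06 from limma). The RERE peak spanned 13708 bp, with its nearer edge 71007 bp from the end of the gene. With 1 list per group, whether a peak absent from a list was missing in those cells or was not called cannot be told apart.

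Where a 3'UTR peak was present in both lists, its fold enrichment was close in both. Matching each peak to its partner of largest overlap gave 14840 pairs, with a median log2 ratio of fold enrichment, shALKBH5 over shCtrl, of -0.05 (-0.05 to -0.04, quartiles -0.32 and 0.27). This median has the size and sign of the ratio of the steps given above, and dividing each fold by the step of its own list moved it to 0.01. Centring on the pairs outside the 3'UTR, whose median was -0.05, gave 0.01. The direction of the median therefore depended on the scaling. Ratios of at least 2 were found in 1024 pairs (6.90%) and ratios of at most the inverse in 955 pairs (6.44%). Among pairs outside the 3'UTR, 10.6% and 11.4% passed these bounds. Requiring both peaks to be stricter left 11246 pairs in the 3'UTR, of which 742 (6.60%) were at least 2-fold higher and 656 (5.83%) at least 2-fold lower in the shALKBH5 list.

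**Figure D4:**
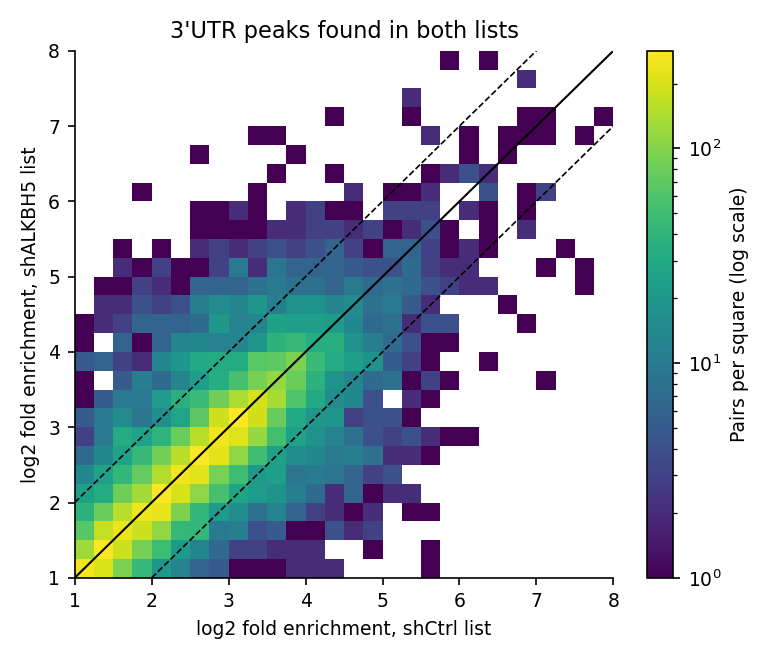
log2 fold enrichment of 3'UTR peaks matched between the shCtrl list (x axis) and the shALKBH5 list (y axis), both with a fold of 2 or more and an FDR no higher than 0.01. Colour gives the pairs per square of 0.25 log2 units on a log scale, the solid line marks equality and the dashed lines a 2-fold difference. Most of the 11236 pairs drawn lie between the dashed lines, and 10 pairs beyond a log2 fold of 8 are not drawn.

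The spread of the ratio narrowed as expression rose. In genes under 1 FPKM, 13.9% of pairs were at least 2-fold higher and 12.4% at least 2-fold lower in the shALKBH5 list. The shares were 6.25% and 6.17% at 1 to 5 FPKM, 3.45% and 3.47% at 5 to 20 FPKM and 1.90% and 1.58% over 20 FPKM. Low genes also had the largest share of folds on the steps.

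Some pairs with the largest ratios also differed widely in extent. Among genes of at least 5 FPKM, the 6 highest ratios were those of EIF3CL (folds 69.2 and 3.83 in the shALKBH5 and shCtrl lists), CCDC47 (26.9 and 1.98), KIF3B (23.9 and 1.80), CST3 (34.3 and 2.94), ZBTB5 (62.5 and 6.43) and ZSWIM1 (36.7 and 4.64). The KIF3B peak spanned 53884 bp in the shALKBH5 list and 1264 bp in the shCtrl list, and the ZBTB5 peak 25228 and 1315 bp, while the CCDC47 peaks, at 6005 and 5405 bp, and the CST3 peaks, at 6283 and 4371 bp, were closer in extent. EIF3CL is a near copy of EIF3C, and its peaks of 121 and 90 bp met only at their edges, so its values are uncertain. The 6 lowest ratios were those of CIRBP (2.06 and 47.5), SLC12A4 (2.79 and 51.1), F8A1 (11.4 and 134), SLC35E2B (2.61 and 29.4), RILPL2 (1.77 and 17.9) and IRF2BP1 (3.19 and 28.9). CIRBP, a cold-inducible RNA-binding protein, had a peak of 61 bp in the shALKBH5 list and 719 bp in the shCtrl list, and F8A1 has near-identical copies. CCDC47, an endoplasmic reticulum protein, had the largest expression change of the 12 genes and fell by 1.08 (standard error 0.119, adjusted p = 0.000179 from limma). The folds and the expression values share the input libraries, so the values stand side by side here without a test of their relation.

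The table of differential peaks drew its 3'UTR members mostly from peaks present in both lists. Of its 3619 3'UTR peaks, 3077 (85.0%, 83.8 to 86.1%) overlapped a 3'UTR peak of both lists, 281 (7.76%) one of the shALKBH5 list alone, 249 (6.88%) one of the shCtrl list alone and 12 neither. Of the 14840 matched pairs, 3035 (20.5%) overlapped a 3'UTR peak of the table. Their median log2 ratio of list folds was -0.16 (-0.18 to -0.14), and 62.9% were lower in the shALKBH5 list, against -0.02 and 51.9% for the pairs outside the table. The table was used for its positions and annotation alone, and it had been chosen on the same libraries, so this difference is a description.

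ABCA1, the cholesterol exporter on which the study centred, had 1 3'UTR peak in each list. Its fold was 9.94 over 1660 bp in the shALKBH5 list and 5.11 over 181 bp in the shCtrl list, and its centre lay 3675.5 and 3295 bp from the gene's 3' end. The shALKBH5 peak was a stricter peak and the shCtrl peak was not and its fold was a whole multiple of that list's step. Expression was 0.317, 0.309 and 0.277 FPKM in the shALKBH5 libraries and 0.0510, 0.0497 and 0.0193 FPKM in the shCtrl libraries. All shALKBH5 values were above all shCtrl values, at a level below the filter, so ABCA1 was not tested.

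ALKBH5 mRNA itself carried weak 3'UTR peaks. Each list held 2, with folds of 1.79 and 2.12 in shALKBH5 and 1.79 and 1.85 in shCtrl cells, below the list medians. Both pairs overlapped, at 18208407 to 18208615 and 18209775 to 18209894 on chromosome 17 in the shALKBH5 list. Its expression fell by 2.36 (standard error 0.0887, adjusted p = 1.28e-06 from limma; exact permutation test on FPKM, two-sided, p = 0.1, the smallest that 3 libraries against 3 allow). The fold is taken against the input of its own group, and the lower input signal in shALKBH5 cells lies in its denominator.

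Expression was then described for the genes with a 3'UTR peak, to show whether the genes that carry the mark differed from genes in general after ALKBH5 knockdown. Of the 12985 genes tested, 61.0% passed, with 34.7% higher and 26.2% lower in shALKBH5 cells. Of the 9356 tested genes with a 3'UTR peak, 3278 (35.0%) were higher and 2682 (28.7%) lower, with a median log2 fold change of 0.06 against 0.09 over all genes tested. Of the 3629 tested genes without one, 1231 (33.9%) were higher and 726 (20%) lower. The share that rose was near the background in both sets. The share that fell was 28.7% with and 20% without a 3'UTR peak, a difference that was not tested. Levels differed too, with a median of 4.74 FPKM with and 2.23 FPKM without a 3'UTR peak, and the part of this was not tested. Rescaling each library by its median ratio moved the median of all genes tested to 0.02 and turned the counts for genes with a 3'UTR peak to 2706 higher and 3056 lower, so which direction prevailed depended on the scaling.

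The calls were also counted by the list that held the peak. With a 3'UTR peak in both lists, 8371 genes were tested, of which 35.6% were higher and 28.6% lower. Of 551 tested genes with one in the shALKBH5 list alone, 31.8% were higher and 26.9% lower, with a median log2 fold change of 0.07. Of 434 with one in the shCtrl list alone, 28.3% were higher and 32.3% lower, with a median of -0.02. The difference between these sets was not tested. Their median level was 4.95 FPKM with a 3'UTR peak in both lists, 3.09 FPKM in the shALKBH5 list alone and 3.37 FPKM in the shCtrl list alone. Genes with a 3'UTR peak in the differential table were more abundant, with a median of 7.08 FPKM against 3.93 FPKM over all genes tested, and 41.2% of the 2813 tested were higher and 29.4% lower. By number of 3'UTR peaks, 34.9% were higher and 29.5% lower among genes with at most 1 peak in a list. Among genes with 4 or more the shares were 33.3% and 27.3%, and this difference was not tested either.

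The m6A machinery is described next. Of 9 writer genes, 8 had a 3'UTR peak in both lists, as did 8371 of all 12985 genes tested. METTL3, the catalytic subunit, had none at a mean of 8.85 and 7.64 FPKM, and rose by 0.21 (adjusted p = 0.0123 from limma). Of the 8, METTL16, a methyltransferase of U6 RNA and MAT2A mRNA, rose, at 7.52, 7.56 and 7.25 FPKM in shALKBH5 against 5.22, 5.29 and 5.75 FPKM in shCtrl libraries (log2 fold change 0.45, standard error 0.0585, adjusted p = 0.000407 from limma), and the other 7 did not pass, where 61.0% of all genes tested did. Its strongest folds were 9.80 in the shALKBH5 and 8.64 in the shCtrl list, and its matched pair had 9.14 and 8.64. METTL14, the partner of METTL3, had strongest folds of 4.81 and 7.81, WTAP, which holds the complex in nuclear speckles, 6.04 and 5.73, and RBM15B 6.09 and 6.63. The zinc finger subunit ZC3H13 had 4.28 and 16.6, which are different peaks, its matched pair having 4.28 and 5.78. RBM15 had 2.22 and 2.63, and CBLL1 4.96 and 5.16.

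The eraser FTO had 1 3'UTR peak in each list, with folds of 8.57 and 10.2, neither of them a stricter peak. It rose from 1.55, 1.63 and 1.57 FPKM in shCtrl to 2.48, 2.46 and 2.36 FPKM in shALKBH5 libraries (log2 fold change 0.59, standard error 0.0758, adjusted p = 0.000401 from limma). FTO and ALKBH5 thus moved in opposite directions, under median ratio scaling as well.

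Of 12 reader genes, 11 had a 3'UTR peak in both lists. IGF2BP1 had none at 24.3 and 20.4 FPKM, and rose by 0.25 (adjusted p = 0.000909 from limma). Of the 11, 2 rose and 4 fell, near the 61.0% of all genes tested that passed, and 1 of the 2 that rose lost its call without some single libraries (adjusted p up to 0.0689, limma). YTHDF1, a cytoplasmic YTH reader, rose by 0.47 on the log2 scale, with strongest folds of 6.64 and 7.45 and a matched pair of 6.30 and 7.45. IGF2BP3, an oncofetal RNA-binding protein, fell by 0.96, HNRNPA2B1 by 0.73 and HNRNPC by 0.23. ELAVL1, the AU-rich element binding protein HuR, fell by 0.14, a call lost without any single library other than shCtrl input 2 (adjusted p up to 0.124, limma). YTHDC2 had strongest folds of 18.4 and 4.99 at 0.881 and 0.707 FPKM, and IGF2BP2 had 10.3 and 8.97 at 28.9 and 29.9 FPKM. YTHDF2, the reader best known for mRNA decay, had 8.01 and 8.47, and its expression did not pass (log2 fold change -0.07).

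Of 21 3'UTR-binding regulators, 19 had a 3'UTR peak, as did 9356 of all 12985 genes tested. Of the 19, 6 rose and 7 fell, a share near the 61.0% of all genes tested that passed. ZFP36, which drives decay of AU-rich mRNAs, was at 9.08, 9.97 and 7.84 FPKM in shALKBH5 and 3.86, 3.70 and 3.34 FPKM in shCtrl libraries, and its paralog ZFP36L2 at 4.61, 3.99 and 3.75 against 12.5, 13.3 and 12.1 FPKM. Their values did not overlap between groups and lay on opposite sides, with log2 fold changes of 1.28 (standard error 0.0991, adjusted p = 3.26e-05) and -1.60 (0.0839, adjusted p = 5.23e-06) from limma. ZFP36L2 had 3'UTR folds of 16.3 and 19.8. In the microRNA pathway, TNRC6A and TNRC6B, scaffolds of the silencing complex, rose by 1.02 and 0.50, and the paralog TNRC6C fell by 0.40, a call lost without shALKBH5 input 3 (adjusted p = 0.0522, limma). AGO1, which binds the microRNA, fell by 1.14, and AGO3 did not pass (log2 fold change -0.17). HNRNPD, another AU-rich element binding protein, fell by 0.57 with folds of 2.90 and 2.87.

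Of 20 factors of 3' end processing, 19 had a 3'UTR peak, 8 rose and 2 fell, and the median log2 fold change of the 19 was 0.03. That is no larger a share than the 61.0% of all genes tested that passed. PCF11, a termination factor whose 3'UTR peak was listed in shCtrl cells alone, rose by 0.90, CPSF2 by 0.57 and RBBP6 by 0.54. FIP1L1 fell by 0.64 and CPSF4 by 0.50. Of 25 deadenylation and decay factors, 23 had one, 8 rose and 6 fell, again near the 61.0% of all genes that passed. BTG2 and BTG1, which recruit the CCR4-NOT deadenylase, rose by 0.92 and 0.67, with strongest folds of 6.38 and 8.91 and of 7.00 and 10.2. Those of BTG1 are different peaks, its matched pair having 6.15 and 10.2. The deadenylase PARN rose by 0.70, and among the 6 that fell CNOT3 fell by 0.31 and the decapping enzyme DCP2 fell by 0.50, the latter a call lost without shALKBH5 input 2 or 3 or shCtrl input 1 or 2 (adjusted p up to 0.0954, limma).

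All 23 immediate early and unstable mRNAs of the list had a 3'UTR peak in both lists, as did 8371 of all 12985 genes tested, and 22 had a matched pair of stricter peaks. Their median log2 ratio of folds was -0.07, near that of all pairs. These are mRNAs that are induced within minutes of growth signals and decay fast through elements in their 3'UTRs. Of the 23, 11 rose and 7 fell, with a median log2 fold change of 0.12. Over all genes tested 34.7% rose and 26.2% fell, with a median of 0.09. DUSP4, a phosphatase that inactivates ERK, was at 81.4, 83.5 and 81.9 FPKM in shALKBH5 and 27.0, 30.0 and 30.3 FPKM in shCtrl libraries. DUSP1 was at 21.8, 23.3 and 22.0 against 7.87, 8.56 and 7.68 FPKM, and KLF4 at 1.99, 2.28 and 2.09 against 0.598, 0.577 and 0.554 FPKM. In these 3 genes every shALKBH5 library was above every shCtrl library. SOCS3, a feedback inhibitor of JAK-STAT signalling, was at 1.86, 1.86 and 1.90 FPKM against 8.09, 8.05 and 7.46 FPKM. EGR1 stood at 2.29, 2.64 and 2.48 against 7.86, 8.06 and 8.11 FPKM, and KLF6 at 2.07, 2.09 and 1.70 against 3.94, 4.59 and 4.70 FPKM. In these 3 genes every shALKBH5 library was below every shCtrl library. Log2 fold changes were 1.50 for DUSP4 (standard error 0.0514, adjusted p = 9.36e-07 from limma) and -2.01 for SOCS3 (0.0623, adjusted p = 6.37e-07). The 3'UTR folds of DUSP4 were 7.37 and 9.82, of DUSP1 6.69 and 7.21, of SOCS3 9.85 and 8.78, of EGR1 7.44 and 6.14 and of KLF6 14.7 and 8.82.

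**Figure D5:**
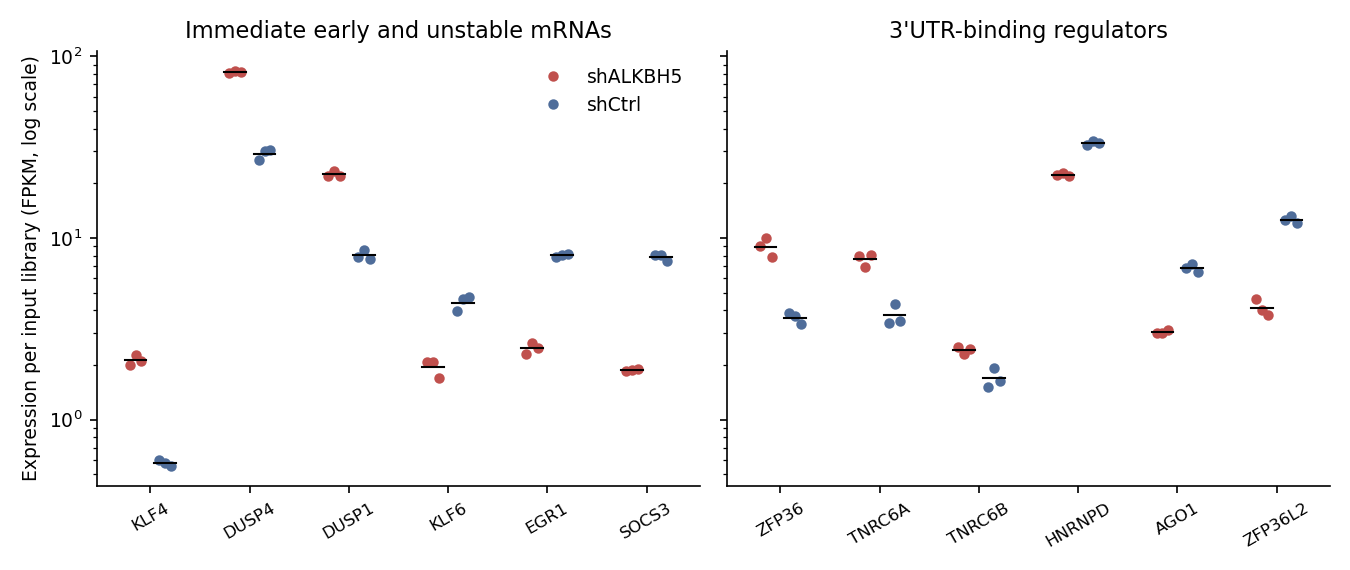
Expression in each input library (FPKM, log axis) of genes with a 3'UTR peak, the 3 highest and 3 lowest in expression change of the immediate early and unstable mRNAs (left) and of the 3'UTR-binding regulators (right). Points are libraries, 3 shALKBH5 in red and 3 shCtrl in blue, and bars are group means. In all 12 genes the groups do not overlap, as for DUSP4 with 81.4 to 83.5 against 27.0 to 30.3 FPKM. The choice of genes by their expression change favours such separation, and 61.0% of all genes tested passed.

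Cell cycle genes fell together, whether or not they had a 3'UTR peak. Of 24 cell cycle genes, 16 had one, and of the 15 of these that were tested 14 fell and 1 rose, with a median log2 fold change of -1.67. Over the whole list of 23 tested genes 22 fell and the median was -1.67 as well, against 26.2% lower and a median of 0.09 over all genes tested. UHRF1, which keeps DNA methylation through replication, was at 6.30, 6.06 and 6.35 FPKM in shALKBH5 and 26.8, 24.4 and 25.7 FPKM in shCtrl libraries (log2 fold change -2.02, standard error 0.0515, adjusted p = 3.18e-07 from limma). Its 3'UTR fold was 29.6 in the shALKBH5 and 8.63 in the shCtrl list. MKI67, the proliferation antigen, fell by 1.86 with folds of 17.6 and 10.0, and TOP2A fell by 2.06 with 4.90 and 2.87. For UHRF1 and MKI67 a higher fold in the shALKBH5 list stands beside a lower input, the denominator of the fold, and a link between these was not tested. MCM2 also fell, by 1.19, and its fold was lower in the shALKBH5 list, at 3.22 against 4.22. TOP2A had no matched pair of stricter peaks. Over the 8 list members with a matched pair of stricter peaks the median log2 ratio was -0.05. CDK2 was the gene that rose, by 0.37.

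In autophagy, 25 of 30 genes had a 3'UTR peak, and of the 23 of these tested 14 rose and 1 fell, with a median log2 fold change of 0.28 against 0.09 over all genes tested, of which 34.7% were higher and 26.2% lower. Over all 28 tested genes of the list, with or without a 3'UTR peak, 17 rose and 1 fell, with a median of 0.27. ATG4D, a protease that processes LC3 homologues, was at 16.3, 15.4 and 16.5 FPKM in shALKBH5 and 5.66, 4.54 and 4.32 FPKM in shCtrl libraries. ULK1, the kinase that starts autophagy, was at 6.50, 6.53 and 6.74 against 2.77, 2.69 and 2.49 FPKM. Neither gene overlapped between groups, and they rose by 1.72 and 1.28 with 3'UTR folds of 2.70 and 2.72 and of 4.81 and 5.64. Under median ratio scaling the rise of ATG16L1 and ATG4B no longer passed, and these, PIK3C3 and NBR1 each lost the call when shALKBH5 input 1 or other single libraries were left out (adjusted p up to 0.102, limma). ATG2A, a lipid transfer protein, rose by 0.71, and ATG10 fell by 1.04 at a mean of 0.368 and 0.859 FPKM.

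In cholesterol transport and synthesis, 14 of 18 genes had a 3'UTR peak, and of the 12 tested 6 rose and 4 fell, where 34.7% and 26.2% of all genes tested did. NPC1 and NR1H2, the lysosomal cholesterol exporter and the receptor LXR beta, rose by 0.39 and 0.38. The desaturase SCD fell by 0.79, HMGCS1 by 0.74 and NPC2, with a 3'UTR peak in the shALKBH5 list alone, by 0.45.

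Among 20 genes of melanocyte identity and melanoma state, 14 had a 3'UTR peak in both lists, and of the 12 tested 4 rose and 7 fell, beside 34.7% higher and 26.2% lower over all genes tested. NGFR, a marker of the neural crest-like state, was at 5.49, 5.95 and 5.54 FPKM in shALKBH5 and 36.5, 32.4 and 35.1 FPKM in shCtrl libraries, and fell by 2.59 (standard error 0.0598, adjusted p = 2.4e-07 from limma) with 3'UTR folds of 6.08 and 5.51. ZEB1 and SOX9 fell by 1.09 and 1.01 at means under 1 FPKM. ERBB3 rose by 0.60 and TEAD1 by 0.53. MITF rose by 0.63, a call lost under median ratio scaling (0.56, adjusted p = 0.0566, limma) and without input 1 or 3 of either group (adjusted p up to 0.148). SOX10, a neural crest transcription factor, had 3'UTR folds of 6.93 and 7.01 and did not pass (log2 fold change -0.03).

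Among the genes with a 3'UTR peak that changed most, the strongest 3'UTR folds ran from 1.23 to 26.9. PTGDR2, a prostaglandin D2 receptor, had 2.34, 1.97 and 2.81 FPKM in the shALKBH5 libraries and was listed at 0 in every shCtrl library, and held 4 3'UTR peaks in each list, with strongest folds of 4.62 and 7.66. The fold of 7.66 is the most common value of the shCtrl list. INMT, a methyltransferase of indole amines, was at 19.1, 19.8 and 20.5 FPKM in shALKBH5 and 1.82, 1.86 and 1.97 FPKM in shCtrl libraries, with folds of 2.69 and 1.56. C3AR1, the receptor for complement C3a, was at 11.7, 12.3 and 12.1 against 1.30, 1.29 and 1.36 FPKM, with folds of 7.10 and 8.57. TCN1, a vitamin B12 binding protein, rose by 3.64 and had a single 3'UTR peak of fold 1.23, in the shALKBH5 list. RAB4B-EGLN2 and AP001931 varied between the shALKBH5 libraries, from 0.230 to 5.27 and from 3.39 to 11.9 FPKM. RAB4B-EGLN2 is a readthrough gene that shares reads with its parts, and both values are uncertain.

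Among those that fell most, ITGB5, an integrin subunit, was at 5.84, 5.86 and 6.41 FPKM in shALKBH5 and 74.6, 71.8 and 72.0 FPKM in shCtrl libraries, with strongest 3'UTR folds of 4.29 and 3.06. SH3BP4, an endocytic adaptor, stood at 1.46, 1.56 and 1.60 against 13.3, 12.9 and 13.3 FPKM, with folds of 6.04 and 7.31. On the log2 scale ITGB5 fell by 3.57 and SH3BP4 fell by 3.02, with no overlap between groups. SCARA3, TRIL and COLEC12 fell by 3.33, 3.12 and 3.00, each to under 0.5 FPKM, with 3'UTR folds of 9.49 and 11.5, of 13.5 and 7.91 and of 26.9 and 4.72. COLEC12 had its fold of 26.9 at 0.0607 FPKM in shALKBH5 cells.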

How the data were processed

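A375 input and IP libraries were grouped by their titles. The authors deposited FPKM per input library, for each group 1 peak list, in which every peak has a fold enrichment (a ratio of IP over input) and a log10 p and FDR, read as a score because some are infinite, and a table of differential peaks. The authors' fold changes, p-values and FDR for group differences were not used. The aligner and peak caller are not given in the sources used here. The submitters' notes name the build mm10, but 21711 of 21728 shared gene symbols (99.9%) overlapped their RefSeq GRCh38.p14 position. Positions are as deposited, counted from 1. No genome was used here, so no sequence is printed.

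Instead of the study's count model, limma 3.58.1 (eBayes with trend, two-sided) in R 4.3.3 was run on log2(FPKM + 0.1) for the 12985 genes averaging 0.5 FPKM or more, with Benjamini-Hochberg adjustment. This scale understates the changes of low genes. On simulated data the fit recovered 90% of 200 changed genes. The p-values measure the spread between libraries, which may be technical. Peaks were matched in Python 3.11.15 with pandas 2.3.3, numpy 2.4.6 and scipy 1.17.1, and plots were drawn with matplotlib 3.10.9. Alternatives varied the pseudocount, filter, scaling, replicate block, libraries, peak strength, span and overlap.

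Genes were named by rule: ALKBH5, ABCA1, the m6A machinery, up to 3 genes per list that rose and 3 that fell most with a 3'UTR peak, the 6 that rose and 6 that fell most, and the strongest, most changed, unshared and most numerous 3'UTR peaks. SOX10, ATG16L1, ATG4B, PIK3C3, NBR1, TNRC6C, AGO3, DCT and GFAP were named after their values were seen. Some genes under the rule are not reported here. Members and lists were chosen with earlier results of these data known.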

Additional observations from a re-analysis of the deposited data

How the results depend on the processing

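Restricting to stricter peaks moved the 3'UTR share to 48.6% in shALKBH5 and 49.1% in shCtrl cells, the median fold to 5.78 and 5.77, the median distance to 2314 and 2279.5 bp and the share overlapping a 3'UTR peak of the other list to 83.4% and 84.3%. Limiting spans to 5000 bp gave 47.7% and 48.6%, 4.72 and 4.66, 1664 and 1658 bp, and 75.3% and 77.6%. The distance from the nearest edge was 1312 and 1289 bp, a reciprocal overlap of 50% left 57.4% and 58.8% shared, and genes of at least 5 FPKM gave 86.4% and 88.6%. The median log2 ratio of -0.045 changed sign when centred on pairs outside the 3'UTR (0.0067) and when each fold was divided by its list's step (0.015), and was -0.058 in genes of at least 5 FPKM. The step scaling and the 5 FPKM limit were chosen after seeing the data.

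The 5960 genes with a 3'UTR peak and an adjusted p under 0.05 ranged from 5156 to 5938 with single libraries left out. With the replicate number as a block there were 5396, 2957 higher and 2439 lower, although the numbers did not pair the libraries (correlations of deviations between same-numbered libraries 0.018, -0.046 and 0.059). The ALKBH5 change kept its direction and call under the block (-2.36), a pseudocount of 1, median ratio scaling and with libraries left out (-2.45 to -2.29). Of 1143 comparisons of 127 called genes with an alternative, 90 in 19 genes lost the call and 0 changed sign. FPKM without counts, 1 peak list per group and no depth limit the precision.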

Other observations

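Genes scarcely present in the input also held 3'UTR peaks. Of the 12420 genes with one, 2876 had a mean under 0.5 FPKM. DCT, a melanocyte pigment enzyme, had a 3'UTR peak of fold 17.1 in the shALKBH5 and 12.8 in the shCtrl list at 0.0301 and 0.0324 FPKM. GFAP, an astrocyte filament protein, had 4 3'UTR peaks in each list, with strongest folds of 15.6 and 9.95, at 0.0148 and 0.0524 FPKM. Whether reads of overlapping transcripts fall under such peaks was not tested.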
